A study of Mus musculus with 8 samples.

Results

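The forkhead genes of the mouse are examined here for binding of GATA2, by asking which of them have a GATA2 site in or near the gene in 2 mesenchymal cell lines. Members were chosen by name: every protein-coding gene whose symbol is Fox, 1 letter and a number, which gave 44 of the 21631 protein-coding genes in the table used. The rule uses no measured value, but the family was picked with earlier results of these data known. Counts and medians below cover all 44, and 43 are described by name or family.

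The study mapped GATA2 by chromatin immunoprecipitation and sequencing (ChIP-seq) in 3T3-L1, a mouse fibroblast line committed to the fat lineage, and in C3H10T1/2, a mouse embryonic fibroblast line that can become fat, bone, cartilage or muscle. For each line the labels give 2 libraries from the GATA2 antibody and 2 of input DNA, with no treatment or genetic change. Precipitated DNA of separate ChIP experiments was pooled before library preparation, per the labels' protocols. Each line is represented by a single peak list, 2445 peaks for 3T3-L1 and 1557 for C3H10T1/2, so no difference between the lines has a replicate check. How deeply the libraries were sequenced is unknown. The lists hold positions alone, in the coordinates of the mm10 build, and the identity of the cells could not be checked against marker genes because no expression values were used. Positions are printed counted from 1.

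Fox proteins share the forkhead or winged helix domain, which binds DNA, and are sorted by letter into families with different roles. FoxA proteins open chromatin in endoderm, FoxC, FoxD, FoxF and FoxL proteins act in embryonic mesenchyme, FoxO proteins are held out of the nucleus by insulin signalling, and FoxM1 drives mitotic genes. In fat tissue, Foxo1 is known to restrain the maturation of preadipocytes and Foxc2 is known for its effect on fat cell metabolism. GATA2 is a zinc finger factor that binds the letters GATA with a preferred base on each side and is known to hold preadipocytes back from becoming fat cells.

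Few Fox genes had a GATA2 peak in or near them, and the same was true of all protein-coding genes. In 3T3-L1, 0 of the 44 genes had a peak centre in the gene or within 10 kb of it, a count that allows a share of up to 6.82% (3 genes of the total). Of all protein-coding genes, 3.96% had one. In C3H10T1/2, 3 of 44 had one, all inside the gene: Foxj3, Foxk1 and Foxn3 (6.82%, 95% exact Clopper-Pearson interval 1.43 to 18.7, against 3.64% of all genes). No Fox gene had a peak of both lines in that window, against 1.68% of all genes. Every one of these shares of all genes lies inside the range that the Fox counts allow, so no departure of the Fox family from other genes was detectable with 44 members. The gene bodies alone gave the same Fox counts, beside 2.79% of all genes in 3T3-L1 and 2.59% in C3H10T1/2. Intervals and limits cover counting error over genes, which are not independent where genes are neighbours.

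Within 100 kb, 5 Fox genes had a 3T3-L1 peak: Foxf1, Foxc2, Foxl1, Foxa1 and Foxd4 (11.4%, interval 3.79 to 24.6, against 13.9% of all genes). In C3H10T1/2 there were 6, namely Foxj3, Foxk1, Foxn3, Foxf1, Foxc2 and Foxl1 (13.6%, 5.17 to 27.4, against 12.1%). Foxf1, Foxc2 and Foxl1 had a peak of both lines (6.82%, 1.43 to 18.7, against 6.35%). Those 3 genes are neighbours reached by 1 site. Genes within 100 kb of each other were therefore joined: these 3, Foxq1 with Foxf2, and Foxd2 with Foxe3. The 44 genes then form 40 groups, and the counts over groups are 3 in 3T3-L1, 4 in C3H10T1/2 and 1 in both. Other protein-coding genes were not joined in this way, so the shares of all genes are no background for these group counts. In all, 8 of 44 Fox genes (18.2%, 8.19 to 32.7) had a peak of either line within 100 kb, against 19.6% of all genes. Within 50 kb the counts were 3 in 3T3-L1 (6.82%, against 8.6% of all genes) and 5 in C3H10T1/2 (11.4%, against 7.36%), and within 200 kb they were 9 in each line (20.5%, against 23.4% and 20.4%). Giving each peak to its nearest protein-coding gene left 1 Fox gene in 3T3-L1, Foxl1, against 6.19% of all genes, and 5 in C3H10T1/2, namely Foxj3, Foxk1, Foxn3, Foxf1 and Foxl1, against 5.08%.

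Fox genes are short, with a median length of 5193.5 bp against 17329 bp for all protein-coding genes, and 26 of 44 are under 10 kb. A short gene offers a smaller window, so the shares were also taken over genes of the same length, in 10 equally large length classes weighted as the Fox genes fall into them. Within 10 kb that share was 3.09% in 3T3-L1, which over 44 genes comes to 1.36 genes, and 2.88% in C3H10T1/2, or 1.27 genes. Within 100 kb it was 13.4% and 11.5%, or 5.89 and 5.07 genes beside the 5 and 6 counted.

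**Figure D1:**
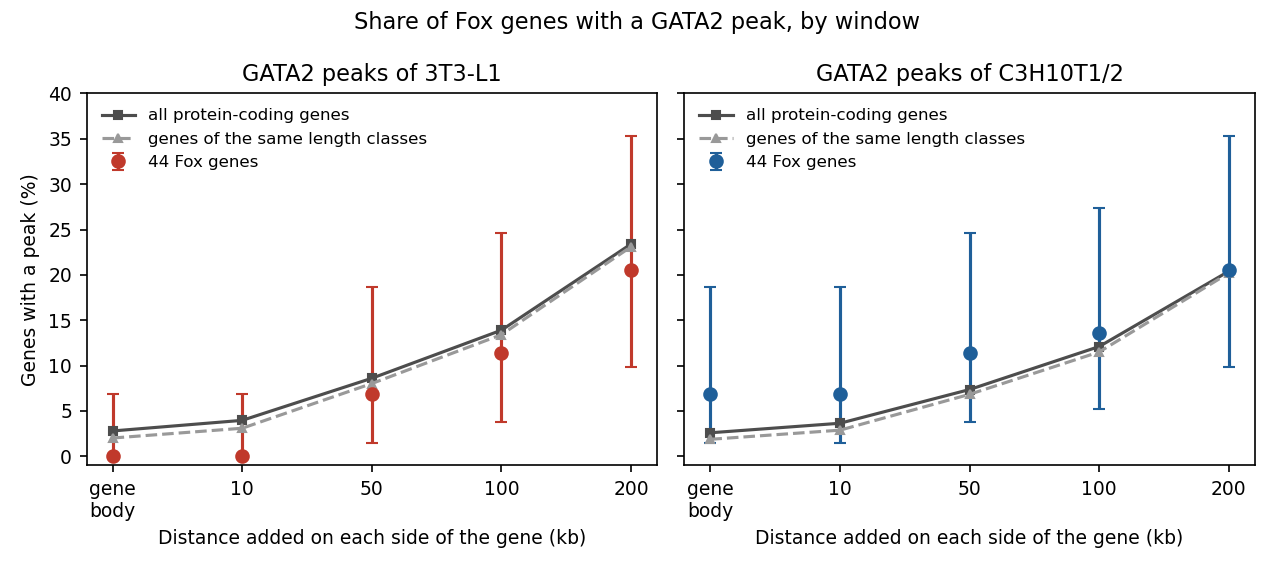
Share of genes with a peak centre in the gene or within the given distance of it (x axis, kb), in percent, for each peak list. Coloured points are the 44 Fox genes with 95% Clopper-Pearson bars (bars at 0 reach the limit that a count of 0 allows), squares all 21631 protein-coding genes, and triangles the mean share of the Fox genes' own length classes; both grey lines stay inside the bars in each window shown.

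The 3 Fox genes with a peak inside them are long members of the family with a peak of C3H10T1/2 alone. Foxj3, which encodes a factor known from muscle fibre type and germ cell development, lies on chromosome 4 (119539661 to 119629119, 89459 bp). Its peak ran from 119551997 to 119552162, a width of 166 bp, and its centre lay 12.4 kb downstream of the start that RefSeq lists for the plus strand. The nearest 3T3-L1 peak lay 345 kb from the gene. The nearest other protein-coding gene, Frg2f1, was 13.3 kb from the peak. The peak lay 13.9% of the way along Foxj3, inside the gene but not at its listed start. Whether the gene has other starts was not examined.

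Foxk1, whose product acts with that of Foxk2 in the response of cells to insulin and starvation, lies on chromosome 5 (142401497 to 142462015, 60519 bp). The peak at 142439904 to 142440043 was 140 bp wide and stood 38.5 kb from the lower and 22 kb from the higher boundary. Its strand is not given in the tables used, so neither boundary is called the start. No 3T3-L1 peak came closer than 587 kb. The related gene Foxk2 had no peak closer than 562 kb in C3H10T1/2 and 1028 kb in 3T3-L1.

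Foxn3, which encodes a repressor tied to the DNA damage checkpoint, lies on chromosome 12 (99190081 to 99563667, 373587 bp). Its peak of 188 bp ran from 99341827 to 99342014, 108 kb downstream of the minus-strand start listed in the promoter table, which is itself an inner start of the gene. The long non-coding RNA gene 3300002A11Rik (99341031 to 99361828) lies over the same place, so the peak is inside both. From Foxn3 to the 3T3-L1 list the gap was 4769 kb, the largest of any Fox gene. Exons and introns are not given in the tables used, so these 3 sites are described only as inside the gene.

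Widths of the 3 sites were ordinary for the list: 20.6% of C3H10T1/2 peaks were narrower than the Foxk1 peak, 38.5% were narrower than the Foxj3 peak and 53.1% were narrower than the Foxn3 peak. Width is the only property of a peak that the lists hold besides its place. When peaks narrower than their list's median were set aside, the Foxn3 site alone was left within 10 kb, which makes 1 of 44 genes against 1.98% of all genes. In 3T3-L1 the same limit left Foxf1, Foxc2 and Foxl1 within 100 kb, against 7.69% of all genes.

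**Figure D2:**
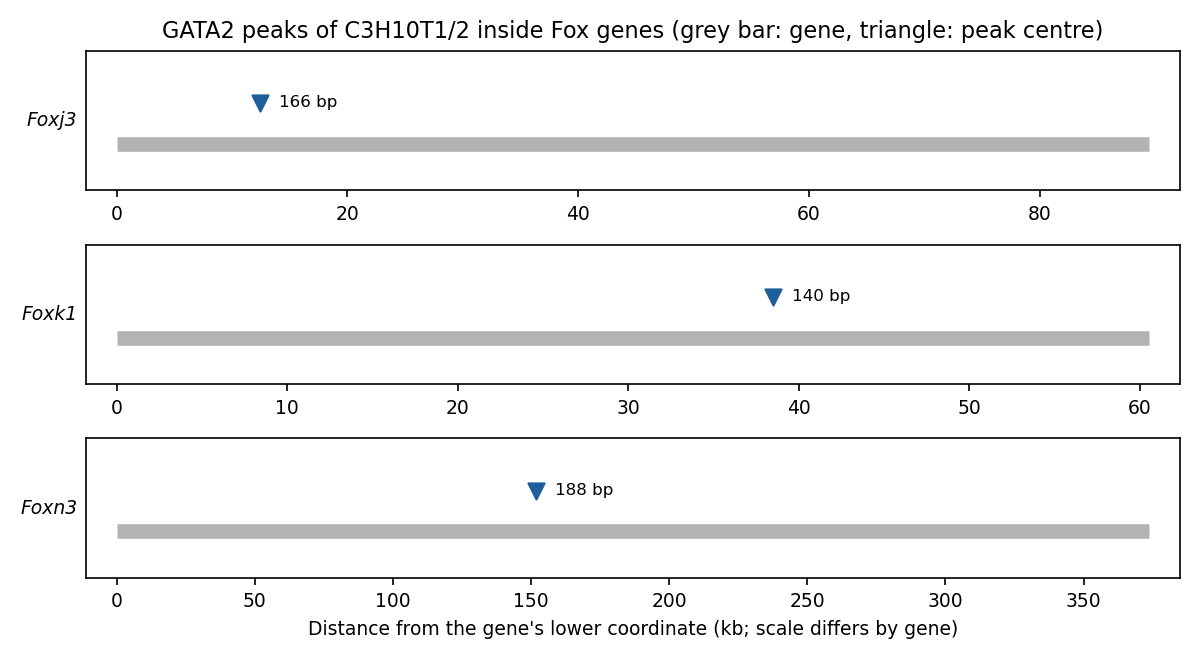
Position of the C3H10T1/2 peak in Foxj3, Foxk1 and Foxn3, as distance from the gene's lower coordinate in kb on a scale that differs by gene. Grey bars are genes and triangles peak centres with the peak width; the centres lie 12.4, 38.5 and 152 kb from the lower coordinate.

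RefSeq starts (GRCm38.p6, the mm10 assembly) were at hand for 28 of the 44 genes, 33 starts in all. The nearest centre lay 12.4 kb from a start in C3H10T1/2, at Foxj3, and 49.4 kb in 3T3-L1, at Foxa1. Within 10 kb, 0 of the 33 starts had a centre of either list, which allows a share of up to 9.09%, against 1.23% of the 21045 starts of all protein-coding genes in 3T3-L1 and 1.22% in C3H10T1/2. A limit of 50 kb took in 1 start per list (3.03%, against 6.32% and 5.35%). Each stretch of 250 bases before a start was searched on both strands for AGATAA, for AGATAG, for TGATAA and for TGATAG, the GATA letters with the bases that GATA factors prefer around them. A match was found in 4 of the 33 Fox stretches (12.1%), at Foxa2, Foxd3 and Foxp3, against 23.6% of the 21045 stretches of all protein-coding genes. Foxp3 gave 2 of the 4. No interval was taken for so small a count, so it does not show that Fox stretches hold fewer matches. The Fox stretches were 61.9% G or C and those of all genes 55.6%, and the part of base composition in these shares was not tested. A match is a description of the letters only.

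Of these stretches, 4 are shown, 2 from genes with a C3H10T1/2 peak inside (Foxj3 and Foxn3) and 2 with GATA letters and no peak nearby (Foxd3 and Foxp3). Each runs 5′ to 3′ on the gene's own strand and ends at the base before the start, with capitals marking the searched letters on either strand. They lie at chr4:119539411-119539660 (plus strand), chr12:99450075-99450324 (minus), chr4:99656049-99656298 (plus) and chrX:7579426-7579675 (plus).
Foxj3: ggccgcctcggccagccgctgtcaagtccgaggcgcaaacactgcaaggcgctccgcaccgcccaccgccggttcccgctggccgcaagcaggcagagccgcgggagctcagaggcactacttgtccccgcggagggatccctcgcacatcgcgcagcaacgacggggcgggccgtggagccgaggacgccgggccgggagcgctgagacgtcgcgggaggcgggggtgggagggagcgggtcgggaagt
Foxn3: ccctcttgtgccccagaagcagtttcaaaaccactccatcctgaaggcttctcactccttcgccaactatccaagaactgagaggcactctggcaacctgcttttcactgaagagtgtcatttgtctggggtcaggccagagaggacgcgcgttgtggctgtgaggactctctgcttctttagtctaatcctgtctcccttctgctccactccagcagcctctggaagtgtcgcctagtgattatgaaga
Foxd3: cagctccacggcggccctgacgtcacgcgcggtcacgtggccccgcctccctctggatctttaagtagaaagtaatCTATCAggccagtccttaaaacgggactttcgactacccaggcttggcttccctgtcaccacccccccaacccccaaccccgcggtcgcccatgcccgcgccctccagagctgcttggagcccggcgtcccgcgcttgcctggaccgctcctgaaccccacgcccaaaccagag
Foxp3: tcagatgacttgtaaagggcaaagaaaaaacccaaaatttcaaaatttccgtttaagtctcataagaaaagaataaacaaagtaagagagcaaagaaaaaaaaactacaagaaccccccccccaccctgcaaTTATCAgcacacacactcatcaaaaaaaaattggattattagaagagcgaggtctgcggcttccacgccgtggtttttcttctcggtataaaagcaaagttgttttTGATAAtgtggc

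The Foxj3 stretch is 74.4% G or C and holds none of the searched letters, as does that of Foxn3 at 52.4%. The Foxd3 stretch holds 1 match, CTATCA, beginning 174 bases before the start, and the nearest peak was 301 kb from it in 3T3-L1 and 666 kb in C3H10T1/2. The Foxp3 stretch, 37.6% G or C, holds 2 matches, TTATCA beginning 118 bases before the start and TGATAA beginning 12 bases before it, and the nearest peaks were 144 kb and 3155 kb away. The sequences under the peaks themselves were not analysed here.

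Foxj3, Foxk1 and Foxn3 are all among the longest genes of the family. A limit of 50 kb, chosen after the values were seen, took in 8 Fox genes. Of these, 3 had a C3H10T1/2 peak inside (37.5%, interval 8.52 to 75.5), against 8.82% of all 4941 genes over 50 kb. The share of all genes lies just above the lower end of that interval. Because the limit was set with these peaks already seen, the interval can give no verdict on long Fox genes. Foxk2 (49914 bp) and Foxn2 (49830 bp), just under the limit, had none, which makes 3 of the 10 longest. In 3T3-L1 it was 0 of 8, which allows a share of up to 37.5%, against 9.55%. The 5 long members without a peak inside were Foxp4, Foxo1, Foxo3, Foxp2 and Foxp1. Foxp1 and Foxp2, which encode repressors known from heart, blood and brain development, are the longest at 597405 and 540629 bp. Foxp1 was 636 kb from the nearest 3T3-L1 peak and 1209 kb from the nearest C3H10T1/2 peak, and Foxp2 was 1760.1 and 1729 kb away. None of the 36 shorter Fox genes had a peak inside in either line, against 0.785% and 0.749% of all genes of up to 50 kb.

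The one site near Fox genes that both lists held lay beside a cluster of mesenchymal Fox genes on chromosome 8. Foxf1, needed for lung and gut mesenchyme and blood vessels, Foxc2, needed for lymphatic vessels and the axial skeleton, and Foxl1, expressed in gut mesenchyme, lie within 46.3 kb (121084386 to 121130644). In 3T3-L1 the peak spanned 121164160 to 121164398 (239 bp) and in C3H10T1/2 it spanned 121164135 to 121164405 (271 bp), with centres 9 bp apart. All of the 3T3-L1 peak lay within the C3H10T1/2 peak. The site stood 33.6 kb above the higher coordinate of Foxl1, 45.4 kb above Foxc2 and 76.1 kb above Foxf1 in both lists, and Foxl1 was the nearest protein-coding gene.

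Both peaks of this site were wide for their lists: 85.6% of 3T3-L1 peaks and 84.7% of C3H10T1/2 peaks were narrower. The site lay in no annotated gene. A long non-coding RNA gene, Gm33633, began 2.64 kb above the 3T3-L1 centre, and the next protein-coding gene above, 1700018B08Rik, was 366 kb away. A peak of C3H10T1/2 alone lay on the other side, 93.2 kb below Foxf1 (120991113 to 120991207), and at 95 bp it had the smallest width in its list. Its nearest protein-coding gene was Foxf1 and the next Mthfsd, 100.5 kb away.

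**Figure D3:**
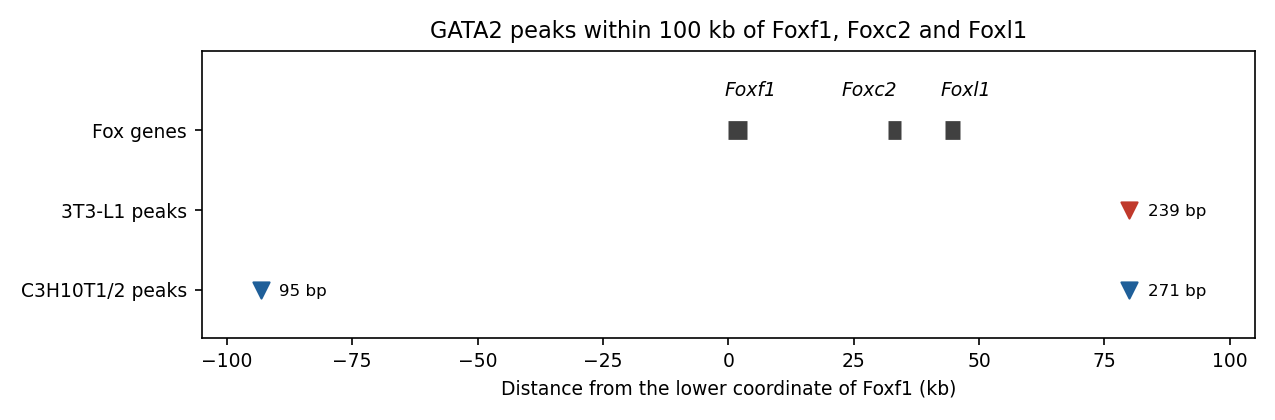
Peaks of each list within 100 kb of Foxf1, Foxc2 or Foxl1, drawn by distance in kb from the lower coordinate of Foxf1. Black bars are the Fox genes to scale and triangles peak centres with the peak width; 1 site is in both lists, 33.6 kb beyond Foxl1, and 1 is in C3H10T1/2 alone.

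A set of Fox genes on chromosome 13 had no site nearby. Foxq1, Foxf2 and Foxc1 lie there within 252 kb (31558170 to 31810635). Foxf2 and Foxc1 belong to the families of Foxf1 and Foxc2, while Foxq1 is of another family. No 3T3-L1 peak came closer than 691 kb to any of them and no C3H10T1/2 peak closer than 369 kb. Foxf1 and Foxf2, and Foxc2 and Foxc1, thus differed in having a shared site within 100 kb. Both differences rest on the same site on chromosome 8. Of all protein-coding genes, 6.35% had a peak of both lines in that window, so having none is the common state.

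The remaining sites within 100 kb were peaks of 3T3-L1 alone. Foxa1, a pioneer factor gene of endoderm and hormone-responsive epithelium on chromosome 12 (57540628 to 57548029), had a peak of 93 bp 44 kb below its lower coordinate, at 57496619 to 57496711. That peak was nearer to the gene Mipol1, 39.4 kb away, and to a long non-coding RNA gene, Gm20016, 10.4 kb away. Foxa2, 246 and 316 kb from the nearest peaks of 3T3-L1 and C3H10T1/2, and Foxa3, 667 and 802 kb from them, had none in this window. Foxd4 on chromosome 19 (24898943 to 24901016) had 2 peaks below it, at 24804005 to 24804129 and 24811567 to 24811677, at distances of 94.9 and 87.3 kb. Both lay inside Pgm5, a phosphoglucomutase relative found at cell adhesions, so Foxd4 was not the nearest gene of either. The C3H10T1/2 peaks came no closer than 377 kb to Foxa1 and 3745 kb to Foxd4.

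Altogether the peaks within 100 kb of a Fox gene were 4 of 3T3-L1 and 5 of C3H10T1/2, of which 1 in each list was the shared site (25% and 20%). In the whole lists 22.4% and 34.7% of peaks were shared, and counts of 4 and 5 peaks cannot set these shares apart (intervals 0.631 to 80.6 and 0.505 to 71.6). Median widths were 118 bp near Fox genes against 144 bp in the 3T3-L1 list, and 166 bp against 184 bp in the C3H10T1/2 list.

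For the other 36 of the 44 Fox genes the nearest peak lay over 100 kb away in both lines. Closest to that limit were Foxn2, a relative of Foxn3 (138 kb from a 3T3-L1 peak, 961 kb from a C3H10T1/2 peak), Foxs1 (139 kb in each) and Foxp3, which directs regulatory T cells (145 kb and 3139.6 kb). Farthest from any peak were Foxp2 (above), Foxj2 (1839 kb in each) and Foxr2 on the X chromosome (3919 and 9216 kb). Over all 44 genes the median distance was 564 kb in 3T3-L1 (middle 50% of genes from 250.4 to 876) and 641 kb in C3H10T1/2 (349 to 1739). For all protein-coding genes it was 588 kb and 743 kb. Beyond 1000 kb from any peak lay 10 Fox genes in 3T3-L1 (22.7%, against 34.1% of all genes) and 17 in C3H10T1/2 (38.6% against 41%). Both lists were that far from Foxi1, Foxi3, Foxj2, Foxo3, Foxp2 and Foxr2, 13.6% of the family against 23.8% of all genes. Counted the other way, 77.3% of Fox genes had a 3T3-L1 peak within 1000 kb (interval 62.2 to 88.5, against 65.9% of all genes). For C3H10T1/2 it was 61.4% (45.5 to 75.6, against 59%) and for either line 86.4% (72.6 to 94.8, against 76.2%). Each interval holds the share of all genes, so no departure was detectable at this distance either.

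**Figure D4:**
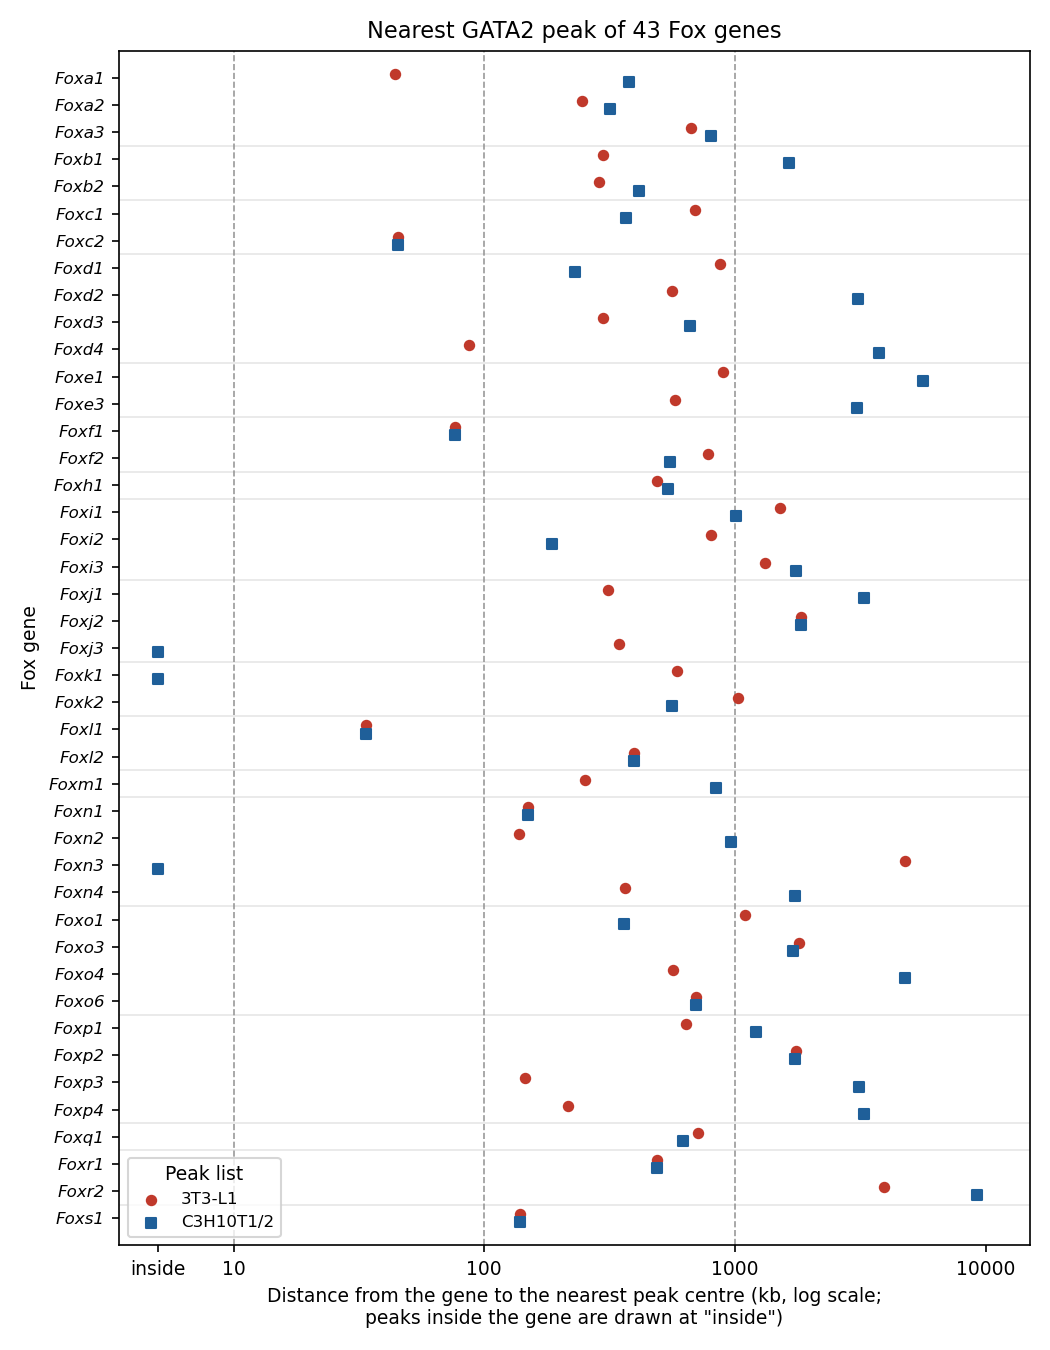
Distance in kb (log scale) from 43 of the 44 Fox genes to the nearest peak centre of 3T3-L1 (circles) and C3H10T1/2 (squares), with genes ordered by family letter and peaks inside a gene drawn at the left. Squares at Foxj3, Foxk1 and Foxn3 stand left of the 10 kb line, and most points lie to the right of the 100 kb line.

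By family, the 4 FoxO genes, whose products carry the insulin signal to the nucleus, had no peak within 100 kb. That is the common state, since 8 of 44 Fox genes and 19.6% of all genes had a peak of either line there. Foxo1 was 1098 kb from a 3T3-L1 peak and 359.7 kb from a C3H10T1/2 peak, and Foxo3 was 1803 and 1701 kb away. Foxo4 was 568 and 4783 kb away, and Foxo6 was 699 kb from both. Foxm1, the mitotic factor, was 252 and 841 kb away. The FoxP genes were 145 to 1760.1 kb from 3T3-L1 peaks and 1209 to 3279 kb from C3H10T1/2 peaks, Foxp4 standing at 216 and 3279 kb.

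Distances for other families with developmental roles follow. Of the FoxD genes, Foxd1 of kidney stroma was 870.3 and 231 kb from the nearest peak of 3T3-L1 and C3H10T1/2, Foxd2 560 and 3089 kb, and Foxd3 of the neural crest 299 and 663 kb. The FoxB genes Foxb1 and Foxb2 lay 286 to 298 kb from 3T3-L1 peaks and 416 to 1650.3 kb from C3H10T1/2 peaks. Foxe1 and Foxe3, of thyroid and lens, were 578 to 894 and 3072 to 5641 kb away. Foxh1, a partner of Smad proteins in nodal signalling, was 489.9 and 543 kb away. The FoxI genes Foxi1, Foxi2 and Foxi3 were 799 to 1511 kb and 187 to 1751 kb away, and Foxj1, which drives the making of motile cilia, 312 and 3268 kb. Foxl2 of the ovary was 397 kb from both. Foxn1 of the thymus was 149.6 kb from both and Foxn4 365 and 1735 kb from them. Foxr1 was 489 kb from both.

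For some genes the nearest peak in both lists was the same shared site. This held for 9 Fox genes (20.5%, against 18.6% of all genes): Foxc2, Foxf1, Foxl1, Foxl2, Foxj2, Foxn1, Foxo6, Foxr1 and Foxs1. Among the others, the 3T3-L1 peak was the nearer one for 21 Fox genes (47.7% of the 44, against 46.1% of all genes) and the C3H10T1/2 peak for 14 (31.8%, against 34.9%). At Foxs1, expressed in vessel wall cells, the site ran from 152792603 to 152792758 in 3T3-L1 and from 152792545 to 152792755 in C3H10T1/2 on chromosome 2. At Foxn1 it ran from 78536307 to 78536485 and from 78536275 to 78536529 on chromosome 11.

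Genes that work with Fox proteins were counted in 5 lists, chosen like the family with earlier results of these data known. Within 10 kb, the FoxO upstream list of insulin and growth factor signalling had 1 of 15 genes with a 3T3-L1 peak. This was the kinase gene Sgk1 (6.67%, against 8.15% over genes of the same length classes). With a C3H10T1/2 peak the list had 0, against 7.48%. Within 100 kb it was 3 and 4 of 15 (20% and 26.7%, against 13.9% and 12.1% of all genes). Its genes are long, with a median of 81940 bp, and over genes of the same length classes the shares within 100 kb were 18.4% and 15.7%. The Sgk1 peak lay inside the gene at 21923001 to 21923309 on chromosome 10. The list of FoxO regulators and partners had 2 of 19 within 10 kb in each line (10.5%, against 5.12% and 4.68% over its length classes). These were Stk3 (35080623 to 35080759 on chromosome 15) and Kat2b (53650249 to 53650501 on chromosome 17) in 3T3-L1, and Stk4 (164142255 to 164142382 on chromosome 2) and Ywhaz (36781988 to 36782230 on chromosome 15) in C3H10T1/2. Stk3 and Stk4 encode the paired Hippo kinases, which phosphorylate FoxO proteins, Kat2b encodes an acetyltransferase and Ywhaz a 14-3-3 protein that holds FoxO in the cytoplasm. All 4 peaks were inside the gene and in one list alone. Within 100 kb this list had 4 and 3 of 19 genes with a peak of 3T3-L1 and of C3H10T1/2 (21.1% and 15.8%, against 15.4% and 13.6% over its length classes).

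Neither list had a peak within 10 kb of a FoxO target gene (0 of 22) or of a FoxM1 target gene (0 of 15). Over the FoxO targets' length classes the shares were 2.32% in 3T3-L1 and 2.17% in C3H10T1/2. For the FoxM1 targets they were 2.14% and 1.9%. Counts of 0 in lists of this size do not set them apart from other genes. Within 100 kb the FoxO targets had 2 genes with a 3T3-L1 peak and 3 with a C3H10T1/2 peak (9.09% and 13.6%, against 12.9% and 11.6% over their length classes), and the FoxM1 targets 1 and 2 (6.67% and 13.3%, against 12.6% and 11.4%). The list of mesenchyme signals linked to FoxC, FoxF and FoxD factors had 2 of 19 genes with a 3T3-L1 peak within 10 kb. These were Pax1 and Gli3 (10.5%, against 4.64% over the list's length classes). With a C3H10T1/2 peak it had 1, Pax1 (5.26%, against 4.28%). Within 100 kb it had 3 and 2 genes (15.8% and 10.5%, against 15% and 13.3% over its length classes). The Pax1 site was in both lists, 4.09 kb above the gene (147379068 to 147379219 on chromosome 2 in 3T3-L1). Pax1 encodes a factor of the sclerotome that forms vertebrae, and Gli3 a transducer of Hedgehog signals. Each count over these 5 lists rests on at most 4 genes, the shares over length classes were added after the counts were seen, and the lists were not tested.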

How the data were processed

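GATA2 ChIP-seq peaks of 3T3-L1 and C3H10T1/2 were analysed as 1 deposited list per line with chromosome, start and end in bp and no score. Per the submitters' processing notes, which state no order or setting, the build was mm10 and CASAVA 1.8, MACS2, Bowtie2, bedtools and SAMtools were used. How libraries were combined, how input was used and which threshold was set are not given in the sources used here, and such choices set which weak sites are listed.

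Genes and starts came from RefSeq tables of GRCm38.p6, and 28 of the 44 Fox genes had a listed start. A peak counted for a gene when its centre lay between the gene's boundaries widened by the window. Peaks were shared at an overlap of at least 1 bp. Counts over Fox genes were set beside the share of all 21631 protein-coding genes and beside 10 length classes. No test was run, since each line has 1 list. Counting was tested on planted peaks. Python 3.11.15, pandas 2.3.3 and scipy 1.17.1 were used. Every Fox gene with a peak within 10 kb is described with its peaks and every one within 100 kb is named. Of the rest, the 3 nearest to and the 3 farthest from a peak were named by rule, and the others were given by family, except 1 gene that is not reported here. Fox genes, lists and windows were chosen with earlier results of these data known.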

Additional observations from a re-analysis of the deposited data

How the results depend on the processing

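Of 52 alternative counts over 8 results, 40 stayed within 1.5 times the reported count. Part of these could not move and so do not show stability. The counts within 10 kb were 0 in 3T3-L1 and in both lines. Removing peaks, narrowing the window or joining neighbours could only leave them at 0. Taking any base of a peak in place of its centre, leaving out dense blocks (runs of at least 8 peaks with gaps of at most 20000 bp) or using either other definition of a shared peak changed no count by that much. No peak of a dense block lay within 1000 kb of a Fox gene, so leaving out dense blocks could change no count. With peaks of at least the median width, C3H10T1/2 had 1 Fox gene within 10 kb and 3T3-L1 had 3 within 100 kb. With neighbouring Fox genes counted once, the counts within 100 kb were 3 in 3T3-L1 and 1 in both lines, with no share of all genes joined this way. A window of 50 kb gave 3 in 3T3-L1, and 200 kb gave 9 in 3T3-L1 and 5 in both. Giving each peak to its nearest protein-coding gene gave 1 Fox gene in 3T3-L1 (Foxl1), 5 in C3H10T1/2 and 1 in both lines. No paired analysis was possible because each line has 1 list for all its libraries, so no replicate could be left out either. Depth is unknown, so weak sites at Fox genes may be missing from either list.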

Other observations

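Other transcription factor families were counted in the same way and by no test. Of 39 Hox genes, 7 had a 3T3-L1 peak within 10 kb (17.9%, against 3.96% of all genes) and 3 a C3H10T1/2 peak (7.69%, against 3.64%). Within 100 kb it was 21 of 39 Hox genes in 3T3-L1 (53.8%, against 13.9%) and 12 in C3H10T1/2 (30.8%, against 12.1%). Hox genes stand in dense clusters, and those 21 and 12 genes were reached by only 4 and 2 distinct peaks. The 7 and 3 genes within 10 kb were reached by 2 and 1 distinct peaks, so the Hox shares rest on very few sites. Of 19 Sox genes, which like the Fox family are mostly short, 1 had a 3T3-L1 peak within 10 kb (Sox5) and another a C3H10T1/2 peak (Sox6), and 0 had both. Each count is 5.26%, against 3.18% and 2.95% over genes of the same length classes. The Sox counts within 100 kb were 2 and 4 (10.5% and 21.1%, against 13.6% and 11.7% over those classes). The 17 Klf genes had none within 10 kb, against 4% and 3.73% over their length classes. Of 9 Irf genes, Irf9 alone had one, in both lines (11.1%, against 2.49% and 2.13%). Klf counts within 100 kb were 2 and 1 (11.8% and 5.88%, against 14.5% and 13%). Irf counts there were 2 in each line (22.2%, against 13% and 11.1%). Counts this small do not set the Sox, Klf or Irf genes apart from other genes. All the families counted here were picked for their kind, and the difference between them and the Fox genes was not tested.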
